A study of Rattus norvegicus with 45 samples.

Results

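The ventral tegmental area (VTA) of rats given a wild-type histone H3.3 vector was compared with that of rats given the empty vector, with no opioid in either group. Both groups were male wild-type Sprague-Dawley rats that self-administered saline for 10 days, received virus in the VTA on day 11 and gave tissue after 30 days of abstinence. Of the 44 rats with consistent labels in the whole series, 14 belonged to this comparison, 7 saline empty (rats 10, 13, 15, 18, 22, 41 and 42) and 7 saline H3.3 WT (rats 4, 8, 23, 27, 44, 49 and 50). The remaining 30 rats had received heroin, an H3.3 vector with glutamine 5 replaced by alanine, or both, and 1 further library with conflicting labels was not used. A gene entered when its value lay above the lowest value of the table in at least 7 of the 14 libraries, which left 20485 of 32883 genes.

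Histone H3.3 is the H3 variant that neurons make outside the cell cycle, and dedicated chaperones place it into active genes throughout life. Its glutamine 5 lies beside lysine 4, a site of methylation at promoters, and in the VTA the enzyme transglutaminase 2 can attach dopamine to that glutamine (H3Q5dop). The wild-type vector adds H3.3 that can still carry the mark, and this pair of saline groups shows how VTA expression differed with it in rats that never took heroin. The series labels name the empty vector GFP. By the study's methods all vectors were adeno-associated viruses that carried GFP, the H3.3 protein bore Flag and HA tags, and GFP light guided a 2 mm punch, although the series description calls the mutant vector lentiviral. The promoter of the vectors is not given in the sources used here, and every punch was bulk tissue. In such tissue fewer cells of a type and less RNA per cell cannot be told apart.

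Reads on genes ranged from 28511057 to 71104049 per library over the 14 rats, with means of 47075414 (H3.3 WT) and 48459746 (empty), a difference well inside the spread (exact permutation test, two-sided p = 0.868). No library repeated another: over 42 pairs of same-group libraries the lowest chi-square per gene was 19.5. Values below are variance-stabilized (VST) values, which behave as log2 counts for abundant genes and compress differences of scarce ones. Where 3 values are listed for a group, they are its lowest, median and highest rat.

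The table identifies genes by Ensembl number alone. Symbols could be attached to 1997 of the 20485 genes, from the part of a supplementary gene list that could be read, and that list is ordered by the same saline comparison. Of the genes with a symbol, 93% had an unadjusted p under 0.05, against 18% of all genes tested, so that counts over named genes describe them and carry no weight as evidence. None of the H3.3 genes, dopamine neuron, GABA neuron, opioid, interferon, antigen presentation, lymphocyte, choroid plexus, cell cycle, other histone variant or serotonin, cholinergic and hypothalamic neuron genes on the lists used here could be named. Expression of the vector's own H3.3, and the dopamine neuron content of the punches, therefore could not be checked.

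No gene was differentially expressed (DEx) with H3.3 WT against the empty vector after saline in limma, by an adjusted p under 0.05 together with a difference of over 0.2 on the log2 scale. The lowest adjusted p was 0.177, and 0.314 when only the 14 libraries compared were fitted. Voom on the recovered reads also gave 0 DEx genes. The unadjusted p-values were strongly skewed, but genes are not independent across the 14 rats. The 2 leading axes of these libraries held 31.1% and 21.2% of the variance, so that a few rats can shift many genes at once. What produced the skew was not tested. Genes at an unadjusted p under 0.05 numbered 3681, which is 18% of those tested, against 1173 (5.73%) in the same vector comparison after heroin. Fitting only the 14 libraries compared gave 2958 such genes after saline. The 3681 genes were split into 1925 higher (9.4%) and 1756 lower (8.57%) with H3.3 WT. The split depended on scaling: 52.3% of these genes were higher on the deposited values, 42.1% after quantile normalization, 35.1% after median centring and 33.1% of 3996 when the recovered reads were fitted with voom. On the deposited values the median was 0.24 among the higher genes and -0.17 among the lower ones, and 1255 higher against 494 lower genes lay beyond a log2 fold change of 0.2. That imbalance depended on scaling too, since voom had 1042 higher and 1292 lower genes beyond 0.2. The median over all genes was 0.00.

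**Figure D1:**
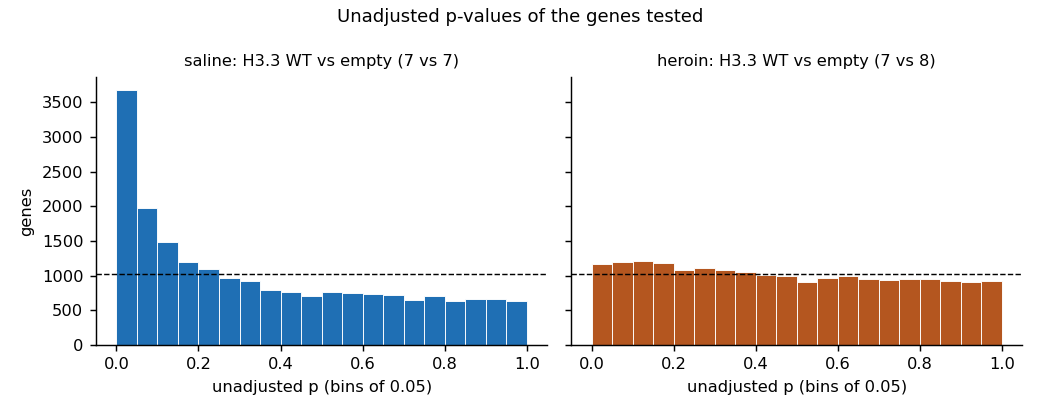
Number of genes (y axis) in each unadjusted p bin of 0.05 (x axis) for H3.3 WT against empty vector after saline (left) and after heroin (right), with the dashed line at the mean count per bin. The saline comparison had 3681 genes in the lowest bin and 633 in the highest, whereas the heroin comparison had 1173 and 921.

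Genes higher with H3.3 WT were led by Xirp1, which encodes an actin-binding Xin-repeat protein best known from striated muscle (Rnor_6.0 chr8:128702132-128711221, minus strand). Its lowest, median and highest values were 7.01, 7.35 and 7.58 in H3.3 WT rats and 6.63, 6.88 and 7.01 in empty rats. The log2 fold change was 0.48 ± 0.10 (SE), with a 95% interval from 0.27 to 0.68 and an adjusted p of 0.177 in limma. Every H3.3 WT rat lay above every empty rat, although the closest pair was nearly level. Because Xirp1 is scarce, the compressed scale matters here, and voom on the recovered reads gave a log2 fold change of 0.93. Relb, the NF-kB subunit of the non-canonical pathway (chr1:80517410-80544825, minus strand), was next. Its lowest, median and highest values were 7.98, 8.15 and 8.27 in H3.3 WT rats and 7.76, 7.87 and 8.06 in empty rats. The log2 fold change was 0.27 ± 0.06 (SE), with a 95% interval from 0.15 to 0.39 and an adjusted p of 0.177 in limma. All 7 H3.3 WT rats exceeded the empty mean, although the groups touched at their edges.

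Next in order of p was Foxs1, a forkhead transcription factor (chr3:148406512-148407778, minus strand), with values of 7.49, 7.68 and 7.85 with H3.3 WT against 7.05, 7.24 and 7.50 with the empty vector, a difference of 0.40 ± 0.09 (SE). Zyx, the focal adhesion protein zyxin, had 10.40, 11.01 and 11.25 with H3.3 WT against 9.98, 10.51 and 10.71 with the empty vector, a difference of 0.44 ± 0.11 (SE). Here 6 of 7 H3.3 WT rats lay above the empty mean, and the exception was rat 27. Adgra2, the adhesion receptor (Gpr124) through which brain endothelium receives Wnt7 signals, had 10.71, 11.30 and 11.92 with H3.3 WT against 10.27, 10.81 and 11.03 with the empty vector, a difference of 0.54 ± 0.13 (SE). Wnt7a, which encodes a Wnt7 protein, was not among the 12 higher genes of lowest p. It had 10.38, 10.45 and 10.81 with H3.3 WT against 10.19, 10.28 and 10.38 with the empty vector, a difference of 0.23 ± 0.07 (SE), with no overlap between groups, although the closest pair was again nearly level.

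The other 7 of the 12 higher genes with the lowest p were Wfikkn2 (0.57), a secreted protein with protease inhibitor domains, Ldlrad3 (0.58), an LDL receptor family member, Rhbdf1 (0.43), an inactive rhomboid, Nhsl1 (0.39), RGD1311946 (0.36), Eepd1 (0.34) and Klf3 (0.26), a Krueppel-like repressor. These are log2 fold changes, H3.3 WT minus empty. All 12 had an adjusted p of 0.177.

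Genes lower with H3.3 WT differed by less. The lowest p belonged to ENSRNOG00000054326, which has no symbol here. Its lowest, median and highest values were 6.07, 6.20 and 6.26 in H3.3 WT rats and 6.38, 6.53 and 6.66 in empty rats. The log2 fold change was -0.34 ± 0.08 (SE), with a 95% interval from -0.51 to -0.18 and an adjusted p of 0.177 in limma. The 2 groups did not overlap. Smarca5, the ATPase of ISWI chromatin remodelers (chr19:30936702-30969454, plus strand), had 11.10, 11.22 and 11.54 with H3.3 WT against 11.40, 11.47 and 11.76 with the empty vector, a difference of -0.24 ± 0.06 (SE), and 6 of 7 H3.3 WT rats lay below the empty mean. Orc2, a subunit of the origin recognition complex (chr9:65350626-65387169, minus strand), had 10.53, 10.68 and 10.86 with H3.3 WT against 10.72, 10.91 and 11.15 with the empty vector, a difference of -0.26 ± 0.07 (SE). Epc1, a subunit of the NuA4 acetyltransferase complex, had 10.61, 10.68 and 10.78 with H3.3 WT against 10.77, 10.82 and 10.90 with the empty vector, a difference of -0.14 ± 0.04 (SE). All 7 H3.3 WT rats lay below the empty mean in Orc2 and Epc1.

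Signalling, splicing and spindle proteins were among the other genes. Rps6ka5 (Msk1), a kinase that phosphorylates histone H3, had 10.84, 11.08 and 11.22 with H3.3 WT against 11.11, 11.30 and 11.52 with the empty vector, a difference of -0.24 ± 0.06 (SE). Tra2b, a splicing regulator, had 11.17, 11.32 and 11.57 with H3.3 WT against 11.43, 11.61 and 11.73 with the empty vector, a difference of -0.23 ± 0.06 (SE). Haus6, a subunit of the augmin complex that nucleates microtubules (chr5:104947426-104980641, minus strand), had 7.97, 8.15 and 8.24 with H3.3 WT against 8.21, 8.30 and 8.71 with the empty vector, a difference of -0.24 ± 0.06 (SE). The groups overlapped in all 3 genes, by the least in Haus6. The remaining members were Bbs7 (-0.31), Ftsj3 (-0.21), a ribosomal RNA processing factor, Cep57 (-0.20), Drg1 (-0.20) and Rbbp6 (-0.17), a ubiquitin ligase. Each of the 12 again had an adjusted p of 0.177.

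**Figure D2:**
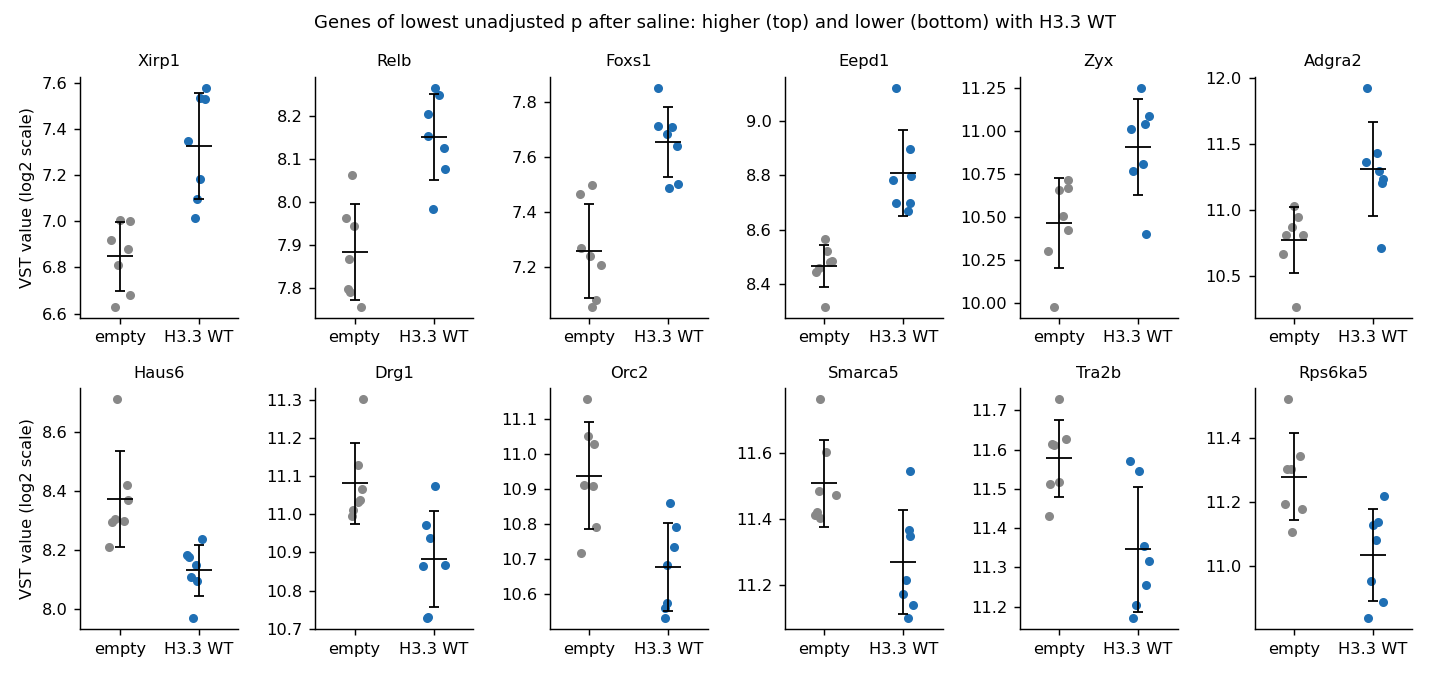
VST value (y axis, log2 scale, separate for each gene) in each of the 7 saline empty (grey) and 7 saline H3.3 WT (blue) rats for 6 genes higher and 6 lower with H3.3 WT; bars are mean ± SD. Xirp1 and Eepd1 show no overlap between groups, and in Zyx and Adgra2 rat 27 is the lowest blue point.

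Separation of the groups was rare. In 21 genes (0.103% of those tested) the 7 H3.3 WT and 7 empty values did not overlap, 8 of them higher (0.0391%) and 13 lower (0.0635%) with H3.3 WT. Among those with a symbol and a mean value of at least 8, the higher ones were Nid2, a basement membrane nidogen, at 9.19, 9.46 and 9.84 with H3.3 WT against 8.81, 9.02 and 9.17 with the empty vector, Nog, the BMP antagonist noggin, at 8.55, 8.72 and 9.003 with H3.3 WT against 8.18, 8.46 and 8.54 with the empty vector, Eepd1 at 8.67, 8.78 and 9.12 with H3.3 WT against 8.32, 8.48 and 8.56 with the empty vector, and Wnt7a. Their differences were 0.54, 0.30, 0.34 and 0.23. The lower ones were the exonuclease Eri2 (-0.30), the RNA surveillance factor Zcchc7 (-0.21), the DNA repair protein Xpc (-0.18), Trmt1l (-0.12), Ammecr1l (-0.11) and Scrn1 (-0.09). The last had the narrowest gap, with 14.31, 14.42 and 14.46 with H3.3 WT against 14.47, 14.49 and 14.55 with the empty vector.

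Of 14 listed genes for chaperones and deposition factors of H3.3 itself, 6 had a symbol and 5 of these were lower with H3.3 WT at an unadjusted p under 0.05. The median log2 fold change of the 6 was -0.17 against 0.00 over all genes, but which genes carry a symbol follows this same comparison. Hirip3, a partner of the Hira chaperone, had 10.36, 10.54 and 10.77 with H3.3 WT against 10.59, 10.80 and 10.94 with the empty vector, a difference of -0.22 ± 0.08 (SE). Nasp, which guards the pool of soluble H3, had 9.73, 9.81 and 10.07 with H3.3 WT against 9.91, 10.02 and 10.44 with the empty vector, a difference of -0.20 ± 0.07 (SE). In both genes the lowest rats were H3.3 WT and the highest were empty, with overlap between. Chd2 (-0.18) and Chd1 (-0.14), remodelers linked to H3.3 placement, and the chaperone Dek (-0.17) were lower by similar amounts. Cabin1, a subunit of the Hira complex, had a difference of 0.14 (unadjusted p = 0.0858 in limma), which was 0.09 without H3.3 WT rat 44. The 8 others, Hira, Daxx and Atrx among them, have no symbol attached here.

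The enzymes around H3 glutamine 5 and lysine 4 gave mixed values, with 4 of 19 named. Tgm2, the transglutaminase that writes H3Q5dop, had 9.54, 10.36 and 10.69 with H3.3 WT against 9.18, 9.80 and 10.11 with the empty vector, a difference of 0.55 ± 0.21 (SE). In Tgm2 6 of 7 H3.3 WT rats lay above the empty mean, and the 95% interval of the difference ran from 0.13 to 0.96. Rat 27 was the lowest and rat 49 the highest H3.3 WT rat in Tgm2, as in the vessel, matrix and blood lists below. Rbbp5, a core subunit of the lysine 4 methyltransferases, had 11.25, 11.34 and 11.45 with H3.3 WT against 11.44, 11.49 and 11.66 with the empty vector, a difference of -0.16 ± 0.04 (SE). The demethylases Kdm5a (-0.13) and Kdm5b (-0.13) were lower as well. None of the 4 passed the adjusted threshold.

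In the synaptic vesicle list 3 of 18 genes were named, with a median of 0.51. Cplx1, complexin, which clamps and primes vesicle fusion, had 13.85, 14.63 and 15.10 with H3.3 WT against 13.52, 13.75 and 14.95 with the empty vector, a difference of 0.63 ± 0.24 (SE). Syn1, synapsin, which tethers vesicles, had 14.04, 14.44 and 14.65 with H3.3 WT against 13.95, 14.13 and 14.35 with the empty vector, a difference of 0.26 ± 0.09 (SE). Syt2, the fast calcium sensor synaptotagmin 2, had 10.78, 12.14 and 12.82 with H3.3 WT against 10.92, 11.51 and 12.47 with the empty vector, a difference of 0.51 ± 0.30 (SE), and missed even an unadjusted p of 0.05. Empty rat 18 was far above its group in Cplx1, at 14.95 against 13.52 to 14.06 in the other 6.

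Among channels and pumps 4 of 21 genes had a symbol, 3 of them higher, with a median of 0.33. Hcn2, a pacemaker channel, had 12.65, 13.08 and 13.72 with H3.3 WT against 12.26, 12.61 and 13.29 with the empty vector, a difference of 0.48 ± 0.17 (SE). Atp2b2, a calcium pump of the plasma membrane (0.27), was higher too. Scn3a, a sodium channel of immature neurons, was lower, with 11.40, 11.67 and 11.77 with H3.3 WT against 11.51, 11.96 and 12.12 with the empty vector and a difference of -0.28 ± 0.11 (SE). The general neuronal genes Thy1 (0.21) and Eno2 (0.26) were higher, and the value of Eno2 was 0.15 without H3.3 WT rat 50. Of the glutamate neuron list, the vesicular transporter Slc17a8 was lower (-0.39).

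Oligodendrocyte genes formed the largest named group. All 15 named of 20 listed myelin genes were higher with H3.3 WT, 13 of them at an unadjusted p under 0.05, and their log2 fold changes lay between 0.23 and 0.60 around a median of 0.44. The base for these counts, and for those of the later lists, is all 1997 named genes. Of these 58.1% were higher and 93% had an unadjusted p under 0.05 in either direction. Over all genes tested, 9.4% were higher at that p. Sox10, the transcription factor of the lineage, had 12.26, 12.64 and 13.25 with H3.3 WT against 11.52, 11.99 and 12.82 with the empty vector, a difference of 0.60 ± 0.19 (SE). Mbp, myelin basic protein, had 17.88, 18.66 and 19.19 with H3.3 WT against 17.91, 18.19 and 19.11 with the empty vector, a difference of 0.44 ± 0.19 (SE). The groups overlapped in both genes.

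The enzymes and junction proteins of myelin showed the same sign, with Fa2h at 0.51, Gjb1 at 0.48, Mag at 0.48, Cldn11 at 0.47, Gal3st1 at 0.46, Myrf at 0.44, Opalin at 0.42, Ugt8 at 0.39, Mobp at 0.38, Plekhb1 at 0.38 and Aspa at 0.23. In the precursor list 6 of 12 genes were named, all higher, with a median of 0.36. Olig1, a lineage transcription factor, had 13.38, 13.68 and 14.23 with H3.3 WT against 12.80, 13.14 and 13.72 with the empty vector, a difference of 0.46 ± 0.14 (SE). Nkx2-2 (0.43), Enpp6 (0.36), Olig2 (0.36), Gpr17 (0.34) and Cspg4 (0.26) completed it. Aspa and Enpp6 had unadjusted p-values of 0.0553 and 0.0619 in limma.

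A pair of rats stood apart from their groups in myelin. The mean level of the 15 genes was 13.01, 13.25 and 14.01 in empty rats and 13.12, 13.74 and 14.18 in H3.3 WT rats. Empty rat 18 reached the level of the upper H3.3 WT rats, while H3.3 WT rat 44 lay at that of the lower empty rats. Without these 2 rats no gene in the table was DEx, at a lowest adjusted p of 0.0527. The median of the 15 genes was then 0.66 in place of 0.44, a rise fixed by picking the rats on these same genes.

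Vessel wall genes were higher with H3.3 WT in all 8 named of 18 listed, with a median of 0.40. Pdgfrb, the pericyte receptor, had 10.85, 10.98 and 11.56 with H3.3 WT against 10.55, 10.65 and 11.00 with the empty vector, a difference of 0.36 ± 0.11 (SE). Acta2, smooth muscle actin, had 10.40, 11.79 and 12.67 with H3.3 WT against 9.94, 10.48 and 11.84 with the empty vector, a difference of 0.90 ± 0.34 (SE). Tagln (0.82), also of smooth muscle, Anpep (0.43) of pericytes, and the endothelial genes Cdh5 (0.41), Vwf (0.39), Tie1 (0.38) and Kdr (0.35) shared the sign. Contractile genes of smooth muscle thus gave the larger values of the list, and also the wider spread, with 5 of 7 H3.3 WT rats above the empty mean in Acta2.

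Matrix genes gave a median of 0.51 over 6 named of 25 listed, all higher. Col1a1, the collagen I chain, had 9.93, 11.76 and 12.22 with H3.3 WT against 10.05, 10.79 and 11.50 with the empty vector, a difference of 0.88 ± 0.38 (SE). Mmp14, a membrane metalloproteinase, had 9.04, 9.90 and 10.55 with H3.3 WT against 8.84, 9.04 and 9.55 with the empty vector, a difference of 0.78 ± 0.22 (SE). In Col1a1 rat 27 was the lowest H3.3 WT rat, at 9.93 against 11.59 to 12.22 in the other 6, below all 7 empty rats. Fbln1 (0.59), Fn1 (0.44), Mmp2 (0.31) and the collagen chaperone Serpinh1 (0.29) were the others.

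Blood genes had the largest median, 0.83 over 4 named of 6. Alas2, the heme synthesis enzyme of red cell precursors, had 6.98, 8.21 and 9.79 with H3.3 WT against 7.06, 7.54 and 8.29 with the empty vector, a difference of 0.65 ± 0.25 (SE). The globin genes Hba-a1 (0.98), Hba-a2 (0.99) and Hbb (0.68) are near copies of other globin genes, so that their single values are uncertain. The mean level of the 4 genes was 9.75, 10.64 and 11.59 in empty rats and 9.87, 11.45 and 13.38 in H3.3 WT rats. H3.3 WT rat 49 stood highest and rat 27 lowest in its group. Leaving out rat 49 alone took Alas2 from 0.65 to 0.40, Hba-a1 from 0.98 to 0.64, Hba-a2 from 0.99 to 0.65 and Hbb from 0.68 to 0.37. The blood list moved with the vessel and matrix lists, in which rats 27 and 49 were also the extremes of the H3.3 WT group, and its part in their values was not tested.

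**Figure D3:**
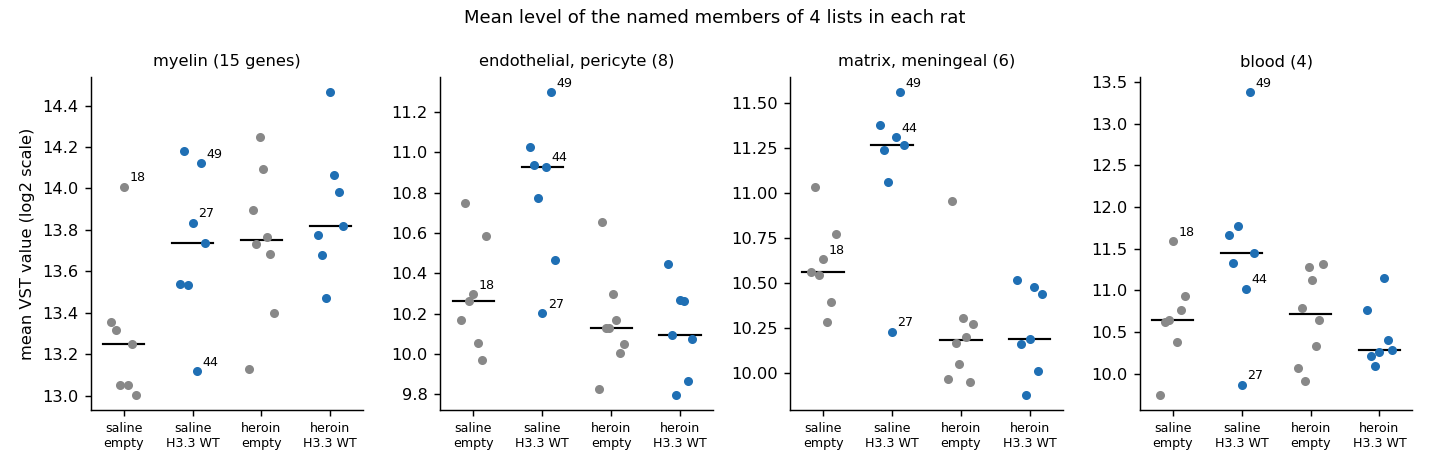
Mean VST value (y axis, log2 scale) over the named members of the myelin, vessel wall, matrix and blood lists in each rat of 4 groups (x axis), with empty vector in grey, H3.3 WT in blue, a line at the group median, and rats 18, 27, 44 and 49 marked. After saline the H3.3 WT median lay above the empty median in all 4 lists (13.74 against 13.25 in myelin), while rat 27 lay below the empty median in the vessel, matrix and blood lists.

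The remaining lists had few named genes. Of NF-kB and cytokine receptor genes, Relb, the receptor subunits Cntfr (0.42) and Il17ra (0.19) were higher, and Nfkbia, which encodes the NF-kB inhibitor and is itself an NF-kB target, was lower, with 9.66, 9.93 and 10.23 with H3.3 WT against 10.00, 10.25 and 10.32 with the empty vector and a difference of -0.24 ± 0.09 (SE). The microglial receptor Cx3cr1 had 10.18, 10.35 and 10.86 with H3.3 WT against 9.83, 10.08 and 10.26 with the empty vector, a difference of 0.41 ± 0.12 (SE). The astrocyte genes Ntsr2 (0.31) and Aldoc (0.17), the small heat shock protein gene Hspb1 (0.63) and the immediate early gene Ier2 (0.38) were higher. Smaller differences were found in Ndufv1 (0.19) and Cox5a (0.15) of the respiratory chain, Rpl13 (0.16) of the ribosome, and Sdf2l1 (0.24) and Dnajb9 (-0.09) of the endoplasmic reticulum.

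Pituitary hormone genes, which are not VTA genes, varied widely between punches. Cga, the shared alpha subunit of the glycoprotein hormones, had 6.43, 8.37 and 10.08 with H3.3 WT against 5.73, 8.62 and 12.59 with the empty vector, and Tshb, the thyrotropin beta subunit, had 6.70, 6.89 and 9.03 with H3.3 WT against 6.55, 7.08 and 11.65 with the empty vector. Empty rat 15 was the highest of the 14 in both. The differences, -0.44 ± 0.74 (SE) and -0.62 ± 0.49 (SE), were within the spread, and the sign of Cga turned to 0.21 without rat 15 and to 0.24 with voom.

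Named genes were not spread evenly over chromosomes by direction, a feature looked for after the values were seen. Of all 1997, 1160 (58.1%) were higher with H3.3 WT, whereas of 73 on chromosome X only 17 (23.3%) were. The X-linked genes with the lowest p in the lower direction were Smarca1, the ISWI ATPase paralogous to Smarca5, at -0.42, Armcx5 at -0.32, Zmat1 at -0.31 and Gpkow at -0.17. On the higher side stood Sts, steroid sulfatase, at 0.52, and Chst7, a sulfotransferase, at 0.34. Chromosomes 19, 12 and 7 lay at the other end, with 74.2%, 71.4% and 70.1% higher. Gene span, read from Rnor_6.0 coordinates, had a median of 15.7 kb in the higher and 28.6 kb (quartiles 13.6 and 53.8) in the lower named genes. Genes without a symbol have no coordinates here and were left out of these counts.

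The same vector pair was present in heroin rats, 7 with H3.3 WT and 8 with the empty vector, and no library was shared with the saline comparison. There 586 genes (2.86%) were higher and 587 (2.87%) lower at an unadjusted p under 0.05, and no gene was DEx in limma, with a lowest adjusted p of 0.332, and voom gave 0 DEx genes and 964 at an unadjusted p under 0.05. Of the 3681 genes at an unadjusted p under 0.05 after saline, 2927 (79.5%) had the same sign after heroin, against 9770 of the 16804 other genes (58.1%). Pearson's r between the saline and heroin differences was 0.132 across all genes tested, which are not independent. Across the 1997 named genes, which were listed by the saline comparison, it was 0.557.

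The lists gave different pictures after heroin. All 15 named myelin genes and all 6 precursor genes were higher after heroin as well, with medians of 0.14 and 0.19, and none of the 21 reached an unadjusted p of 0.05 there. Such agreement was common, since 988 (85.2%) of the 1160 named genes higher after saline were also higher after heroin. The 4 blood genes were all lower after heroin, with a median of -0.21, and 4 of 6 matrix genes were lower, with a median of -0.11. Mmp14 (0.46) and Mmp2 (0.27) were higher. Of the 6 matrix genes, 2 had an unadjusted p under 0.05 after heroin. Of the 8 vessel genes 5 were higher and 3 lower after heroin, with a median of 0.02 and 0 at that p. Tgm2 was -0.05 after heroin and Xirp1 0.05, while Relb, at 0.17, had an unadjusted p of 0.00413. The test of the difference itself, the interaction of vector and drug, had 1042 genes (5.09%) at an unadjusted p under 0.05, near the share which that threshold gives by chance. None was DEx in limma, with a lowest adjusted p of 0.535, and voom gave 0 DEx genes and 1014 at an unadjusted p under 0.05. In limma the unadjusted p of the interaction was 0.00454 for Xirp1, 0.0434 for Tgm2 and 0.0142 for Hba-a2, and none of these differences between saline and heroin rats held after adjustment. Symbols follow the saline comparison, and Xirp1 was also picked by its p there. That comparison is part of the interaction, so that low interaction p-values were favoured in these genes.

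**Figure D4:**
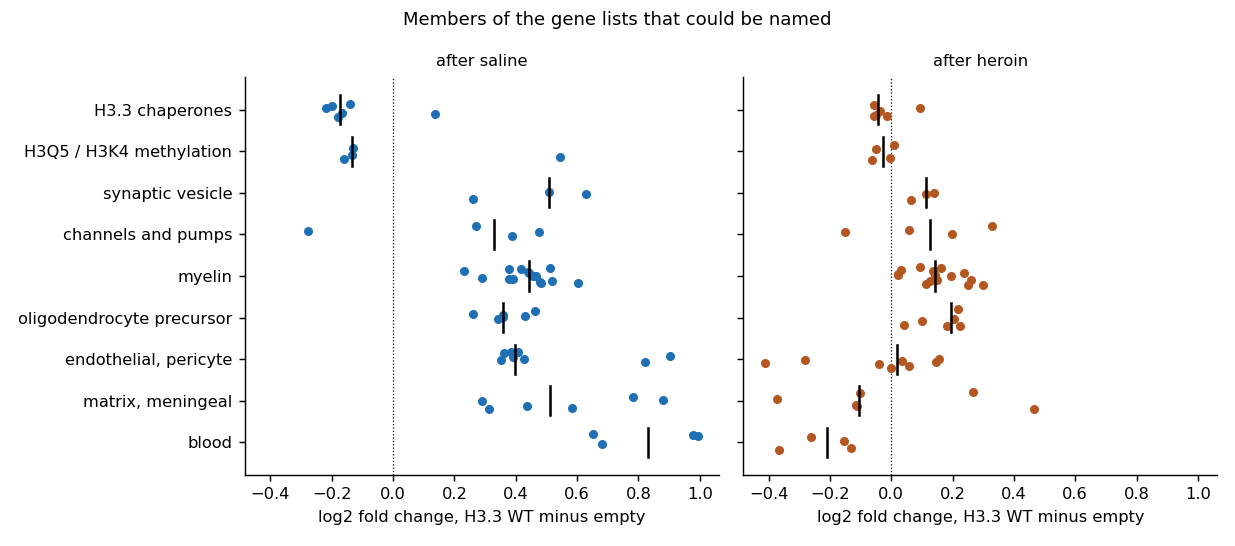
Log2 fold change, H3.3 WT minus empty (x axis), of each named member of 9 gene lists (rows) after saline (left) and after heroin (right), with a black line at the list median. After saline 5 of 6 chaperones sit left of 0 and myelin, vessel, matrix and blood genes right of 0, and after heroin the blood median is -0.21.

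In the fits without residual factors, genes passed only when 1 H3.3 WT rat was left out. Without rat 27, 231 genes (1.13%) were DEx, 153 higher (0.747%) and 78 lower (0.381%), and the lowest adjusted p was 0.0269. Leaving out any other single rat gave 0 DEx genes, and the lowest adjusted p over the 14 fits ran up to 0.459. Rat 27 is singled out by this outcome, and the adjusted p-values without it do not allow for that choice. Among the genes with the lowest p without rat 27 were Relb (0.30, adjusted p = 0.027), Zyx (0.53), Adgra2 (0.64), the transcription factor Maf (0.63), the cyclin Ccnd3 (0.44), the extracellular superoxide dismutase Sod3 (0.65), RGD1311946 (0.43) and ENSRNOG00000014672 (0.74). Rat 27 was the lowest of its group in Maf, at 8.68 against 9.40 to 9.85 in the other 6, and in Sod3, at 9.55 against 10.34 to 10.74. Picking genes by their p without rat 27 favours such placings. On the lower side stood Smarca5 (-0.28), Tra2b (-0.27), the helicase Dhx36 (-0.23), Drg1 (-0.23), Gnpnat1 (-0.30), Alg11 (-0.28), Samhd1 (-0.32) and Ccdc82 (-0.37). Of the listed genes, Relb, Mmp14, Alas2, Hba-a1 and Hba-a2 were DEx without rat 27. The labels give rat 27 no remark, and its read total, 35831178, lay inside the range of its group.

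**Figure D5:**
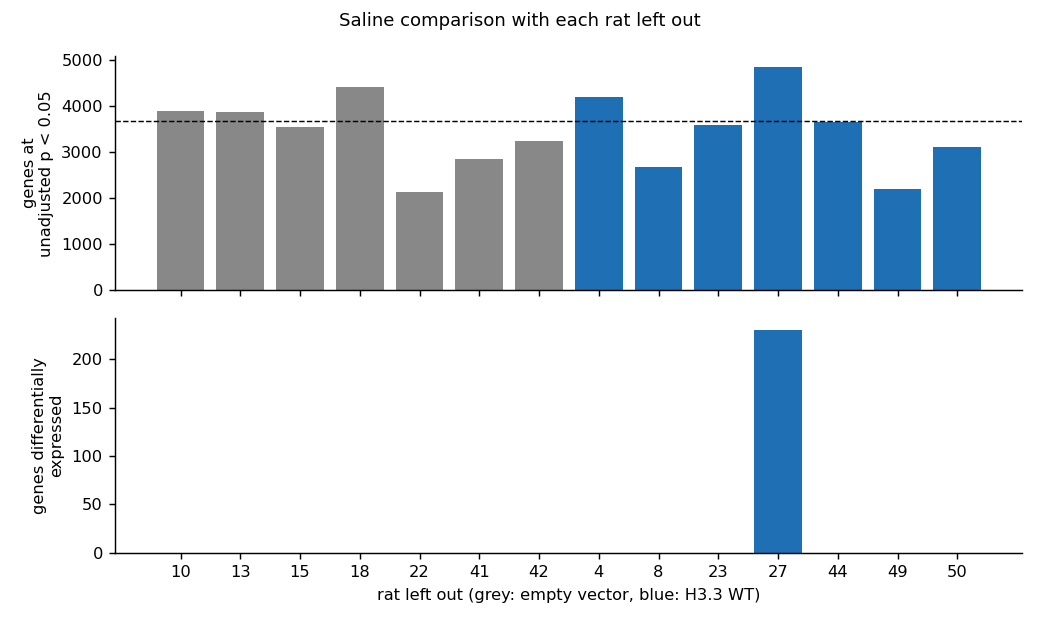
Genes at an unadjusted p under 0.05 (top, dashed line at 3681 for all rats) and DEx genes (bottom) in the saline comparison when the rat named on the x axis is left out, with empty rats in grey and H3.3 WT rats in blue. The upper counts run from 2133 without rat 22 to 4847 without rat 27, and the lower count is 231 without rat 27 and 0 otherwise.

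The count of DEx genes also turned on whether unexplained variation was modelled. The study's own differential analysis removed such variation, with a number of factors that is not given in the sources used here. The paper reports only a small number of DEx genes between the empty and H3.3 WT vectors, without naming the drug condition. The fits below do not repeat that analysis, and their counts are not comparable with it. When the leading axis of the residuals was added to the model, 368 genes were DEx, and 2 and 3 axes gave 1531 and 1966, of which 69% and 71.5% were higher. These axes are built to be independent of the groups, so that no log2 fold change moved and only the error shrank. They were taken from the residuals of the same fit, which makes the p-values too small. With 1 axis 10 of the 15 myelin genes and 1 each of the precursor, vessel and matrix genes were DEx, against 339 of all 1997 named genes. With 2 axes 1125 named genes were DEx. They included all 15 myelin, 6 precursor, 8 vessel and 6 matrix genes and 3 of 4 blood genes. Only 1 of 6 chaperone genes and 1 of the 4 genes around glutamine 5 and lysine 4 were among them. The heroin comparison then gave 0, 2 and 204 DEx genes, and the interaction 23, 124 and 369.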

How the data were processed

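RNA-seq of VTA punches from single rats was deposited as 1 table of 32883 genes in 45 libraries, of which 44 were mapped to a group by their labels. The deposited log2 values are counts that the authors variance-stabilized, per the title of the table. The submitters' processing notes name HISAT2 2.1.0, featureCounts 2.0.1, DESeq2 2.11.40.6 and Rnor_6.0. Libraries were polyA-selected and not stranded by kit, so that reads of overlapping antisense genes cannot be told apart. Inverting the transform gave whole reads within 0.05 for all values, from which read totals were taken. Counts themselves were not given, so limma 3.58.1 (R 4.3.3) with an intensity trend was fitted to the deposited values of all 44 libraries in 6 groups, with Benjamini-Hochberg adjustment over 20485 genes. Animals were separate, so p-values measure the spread between rats. Alternatives changed the filter, scaling, samples, residual factors, covariates, weights, thresholds and model. The members and gene lists were chosen with earlier results of these data known. Genes named were the listed genes with a symbol, the 12 of lowest p in each direction, up to 6 per direction without overlap and with a mean of at least 8, and the 8 of lowest p per direction without rat 27. The last, the X-linked genes and the symbol families were chosen after their values were seen. Symbols and coordinates came from the readable part of a supplementary table, and no other value in it was used. Single values of some genes are not reported here, and the counts and medians of their lists include them. The fits were tested on simulated data.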

Additional observations from a re-analysis of the deposited data

Results flagged for a closer look

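Values standing apart from the other 6 rats of their group were looked for in 228 sets of 7 values, and 27 were found by Dixon's gap test, where chance gives about 1 in 20 (11.4). They fell on few rats, 10 on empty rat 18, 8 on H3.3 WT rat 27 and 4 on H3.3 WT rat 49. The sets included genes picked by their p without rat 27, and the genes of a rat are not independent. The count of 27 against 11.4 is therefore a description and not a test of excess. No explanation was tested.

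Empty rat 18 was the highest of its group in the oligodendrocyte genes Mbp (19.11 against 17.91 to 18.26 in the others), Mobp (16.08), Cldn11 (15.24), Mag (15.15), Opalin (13.37) and Olig2 (12.01). It was also the highest in the neuronal genes Thy1 (15.25), Cplx1 (14.95) and Atp2b2 (14.47), and the lowest in Scn3a (11.51 against 11.89 to 12.12).

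H3.3 WT rat 27 was the lowest of its group in Col1a1 (9.93 against 11.59 to 12.22), Fbln1 (10.39 against 11.78 to 12.35), Ccnd3 (10.62), Sod3 (9.55), RGD1311946 (9.34) and Maf (8.68). It was the highest in Dhx36 (12.46 against 12.12 to 12.25) and Ccdc82 (11.66 against 10.71 to 10.99). In each of these genes rat 27 lay on the side of the empty rats. All but Col1a1 and Fbln1 were among the genes picked by their p without rat 27, a choice that favours such placings.

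H3.3 WT rat 49 was the highest of its group in the vessel genes Pdgfrb (11.56), Tie1 (11.30) and Kdr (10.43 against 9.74 to 9.94), and in Rhbdf1 (10.27). The other cases were single ones. Empty rat 22 was the highest in Rbbp5 (11.66 against 11.44 to 11.49) and Haus6 (8.71), empty rat 13 in Serpinh1 (12.15), empty rat 42 in ENSRNOG00000014672 (7.05), and H3.3 WT rat 50 in Eno2 (10.77).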

How the results depend on the processing

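The count of 0 DEx genes after saline held without a filter on low values, with only genes above the median, under median centring, quantile normalization, the 14 libraries alone, read total, rat number or rats numbered 40 and above as covariates, array weights, voom, no fold threshold and an FDR of 0.1, and, added after seeing the data, without rats 18 and 44 together. Without the filter 1 gene in the saline comparison (lowest adjusted p = 6.72e-07 in limma) and 1 for the interaction (0.00224) had an adjusted p under 0.05, both outside the 20485 genes tested and at a log2 fold change of at most 0.17, so that the fold threshold alone kept the count at 0. The count of 0 did not hold with 1, 2 or 3 residual factors (368, 1531 and 1966 DEx genes), which also gave 2 and 204 DEx genes after heroin (2 and 3 factors) and 23, 124 and 369 for the interaction. Rat number as a covariate gave 1 DEx gene after heroin. Leaving out each rat in turn gave 0 to 231 DEx genes, the latter without rat 27. The count at an unadjusted p under 0.05 ran from 2133 (without rat 22) to 4847 (without rat 27), and was 2207 without rat 49. Of 117 genes chosen by the naming rules, the sign turned in Cga alone, to 0.24 with voom and 0.21 without rat 15 (range -0.93 to 0.21 as each rat was left out), and Tshb was at -0.02 without rat 15. No list median with at least 2 named genes turned its sign in the settings that kept all rats. The difference in mean read total, -1384332 with all rats, ran from -5389105 to 1709727 as each rat was left out, with no exact p under 0.05. The cause of these changes was not tested, beyond the residual factors shrinking the error by construction. No paired analysis was possible because the empty and H3.3 WT rats share no rat number. Depth limits the scarce genes, whose differences the deposited scale compresses.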

Other observations

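Some families of named genes sharing the start of their symbol, looked at after the values were seen, were uneven in direction. The share of genes higher with H3.3 WT was 58.1% over all 1997 named genes. Families nearer that share were Ppp (7 of 13 higher), Rnf (7 of 12), Fam (7 of 15) and Zbtb (5 of 8). Zinc finger genes starting with Zfp numbered 47, of which 12 were higher and 35 lower. All 10 ubiquitin-specific protease genes (Usp) were lower, as were 8 of 10 translation initiation factor genes (Eif) and 7 of 8 centrosomal protein genes (Cep). Solute carrier genes (Slc) went the other way, with 32 of 42 higher, and so did 8 of 9 ATPase and ATP synthase genes (Atp), 9 of 11 genes starting with Map and 16 of 21 transmembrane protein genes (Tmem). Since the named genes were listed by this comparison and each family shares no replicate beyond the same 14 rats, these counts are a description with no test.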
